A study of Homo sapiens with 6 samples.

Results

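The 37 genes described here encode the enzymes that build cholesterol and fatty acids from acetyl-CoA, with the proteins that set their transcription. Each was found by its symbol in the count and FPKM tables of SK-BR-3 cells, 37 of the 30327 genes listed there. By role, 18 belong to the sterol branch, 13 to the fatty acid branch, and 6 to the control of sterol regulatory element-binding proteins (SREBPs) and sterol transport. SK-BR-3 is an established human breast cancer line with amplified HER2. The control group, si_NC, holds 3 RNA-seq libraries of cells that received a nontargeting siRNA. The treated group, si_GRB2, holds 3 libraries of cells that received an siRNA to GRB2, an adaptor protein downstream of receptor tyrosine kinases. The methods print 1 siRNA sequence against GRB2, so loss of GRB2 and any effect of that siRNA on other transcripts cannot be told apart. The library titles and the genotype label call the treated cells GRB2 overexpression, while their descriptions name si_GRB2, which is the label used for the groups here. Levels are given as CPM, TMM-normalized counts scaled to a common library total, and, between genes, as FPKM, which corrects for transcript length. The FPKM are the authors' own and do not carry the TMM factors of the CPM, so changes between the groups can differ between CPM and FPKM. GRB2 itself had 124, 129.5 and 126 CPM in si_NC and 27.8, 28.1 and 29.6 CPM in the libraries labelled si_GRB2, a fall that goes with the descriptions and against the titles.

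SREBPs are made as membrane proteins of the endoplasmic reticulum. SCAP escorts them to the Golgi for cleavage when sterols are low, and INSIG proteins hold SCAP back when sterols are plentiful. The freed SREBP-2, encoded by SREBF2, mainly drives cholesterol synthesis, while SREBP-1, encoded by SREBF1, mainly drives fatty acid synthesis, with much overlap between them. HER2-positive breast cancers are known for high fatty acid synthase.

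The gene counts of a library summed to between 24810378 and 28532480 reads. The line's markers ERBB2, GRB7, KRT8, KRT18, KRT19 and EPCAM were all present (6 of 6), with a summed level of 17384 to 17771 CPM in si_NC and 14536 to 15126 CPM in si_GRB2, where 1 of the 6 (ERBB2) was higher and 5 were lower. ESR1, PGR, VIM, KRT5 and KRT14, markers of other breast lines, summed to 18.1 to 19.0 CPM in si_NC and 9.82 to 10.2 CPM in si_GRB2. KRT5 made up most of these sums, with means of 17.1 CPM in si_NC and 8.43 CPM in si_GRB2. ESR1 averaged 1.04 and 1.37 CPM in the same groups. Of 9 markers of immune, endothelial, stromal, liver and fat cells, only COL1A1 had enough reads to test, and their summed level was 4.42 to 5.92 CPM in si_NC and 5.17 to 5.77 CPM in si_GRB2. DCN, a stromal marker, had 2 reads over the 6 libraries and PTPRC, the leukocyte marker, had 2. Reads on the mitochondrial genome were 8.66% to 9.02% of the total in si_NC and 7.59% to 7.80% in si_GRB2, and their part in the results below was not tested. The labels do not say whether the libraries of a group came from separate cultures, so the p-values measure only the spread between these libraries.

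The promoters of 8 members are shown to compare which of 3 motifs they hold. The 250 bases before the start site are given for 3 genes that rose most in the sterol branch and its feedback, INSIG1, HMGCS1 and TM7SF2, for SREBF2, the factor gene that rose, for ACLY, ACSS2 and ELOVL6 of the fatty acid branch, which fell, and for ME1, which rose most. The sequences are from RefSeq on GRCh38.p14, 5′ to 3′ on the gene's own strand. Capitals mark CCAAT, read as ATTGG on the other strand, which is the box bound by NF-Y, CACGTG, an E-box, and TCACNCCAC, the core of a sterol regulatory element. The windows lie at chr7:155297628-155297877 (plus strand, INSIG1), chr5:43313413-43313662 (minus strand, HMGCS1), chr11:65111622-65111871 (plus strand, TM7SF2), chr22:41832855-41833104 (plus strand, SREBF2), chr17:41918952-41919201 (minus strand, ACLY), chr20:34876362-34876611 (plus strand, ACSS2), chr4:110198616-110198865 (minus strand, ELOVL6) and chr6:83431052-83431301 (minus strand, ME1). The sequences of ACSS2, ELOVL6 and ME1 hold none of the 3 marked motifs. The window of another ACSS2 start, 1623 bases away, holds CCAAT at −123. ELOVL5, the fatty acid gene that fell most, is not printed. Its window holds CCAAT at −122 and −68 and CACGTG at −211 bases from the start, so lack of the motifs is not shared by the genes that fell.
INSIG1: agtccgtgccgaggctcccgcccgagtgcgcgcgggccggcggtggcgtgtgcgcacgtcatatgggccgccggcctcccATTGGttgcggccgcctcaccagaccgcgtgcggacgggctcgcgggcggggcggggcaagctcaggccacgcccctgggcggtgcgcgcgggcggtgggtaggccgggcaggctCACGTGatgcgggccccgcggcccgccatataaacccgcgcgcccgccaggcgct
HMGCS1: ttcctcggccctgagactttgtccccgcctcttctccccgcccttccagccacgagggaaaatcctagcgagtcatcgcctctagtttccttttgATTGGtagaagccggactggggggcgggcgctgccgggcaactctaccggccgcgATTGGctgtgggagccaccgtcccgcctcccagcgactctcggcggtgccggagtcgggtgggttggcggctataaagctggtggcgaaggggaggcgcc
TM7SF2: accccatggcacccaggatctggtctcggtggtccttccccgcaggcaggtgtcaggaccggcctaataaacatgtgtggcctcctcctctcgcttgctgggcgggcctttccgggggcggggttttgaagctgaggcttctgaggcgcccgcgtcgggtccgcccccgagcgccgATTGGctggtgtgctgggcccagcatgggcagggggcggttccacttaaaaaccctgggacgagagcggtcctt
SREBF2: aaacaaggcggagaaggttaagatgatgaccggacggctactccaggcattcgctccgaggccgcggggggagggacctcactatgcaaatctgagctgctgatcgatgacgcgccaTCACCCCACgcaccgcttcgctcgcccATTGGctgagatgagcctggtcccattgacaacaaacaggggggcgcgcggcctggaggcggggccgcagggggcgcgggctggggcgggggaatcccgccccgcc
ACLY: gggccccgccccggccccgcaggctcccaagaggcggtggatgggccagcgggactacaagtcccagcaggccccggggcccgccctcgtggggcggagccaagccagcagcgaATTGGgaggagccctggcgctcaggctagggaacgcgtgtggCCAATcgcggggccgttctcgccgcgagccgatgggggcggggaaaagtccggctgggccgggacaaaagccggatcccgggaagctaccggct
ACSS2: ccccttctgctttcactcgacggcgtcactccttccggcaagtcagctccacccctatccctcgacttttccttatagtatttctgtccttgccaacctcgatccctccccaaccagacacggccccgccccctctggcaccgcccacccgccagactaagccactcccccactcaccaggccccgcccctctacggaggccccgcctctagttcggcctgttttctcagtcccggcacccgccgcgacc
ELOVL6: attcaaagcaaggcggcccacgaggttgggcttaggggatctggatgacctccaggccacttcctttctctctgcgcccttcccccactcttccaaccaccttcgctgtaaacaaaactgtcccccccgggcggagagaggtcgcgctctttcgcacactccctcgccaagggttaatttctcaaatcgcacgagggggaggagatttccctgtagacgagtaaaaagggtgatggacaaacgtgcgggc
ME1: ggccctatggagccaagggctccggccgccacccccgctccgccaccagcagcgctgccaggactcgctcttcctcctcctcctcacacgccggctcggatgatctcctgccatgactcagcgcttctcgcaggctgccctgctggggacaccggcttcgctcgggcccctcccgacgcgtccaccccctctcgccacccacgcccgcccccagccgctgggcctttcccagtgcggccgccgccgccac

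Of the 37 members, 33 had a promoter entry, and ACAT2, FASN, FDFT1 and SQLE did not. In windows of 300 bases, from 250 before to 50 after the start, CCAAT on either strand was found in 13 of 15 sterol genes, 6 of 12 fatty acid genes and 3 of 6 control genes, against 34.6% of all 35116 promoters in the table. The 2 sterol genes without it in the window were CYP51A1 and PMVK. GGGCGG, the GC box, was found in 14 of 15 sterol, 9 of 12 fatty acid and 6 of 6 control genes, against 45.0% of all promoters. FADS2 is counted for CCAAT and GGGCGG, although its window lies 11896 bases from its MANE Select start. CACGTG was found in LSS, SC5D, ELOVL5, INSIG1 and SCAP, and TCACNCCAC in SREBF2 alone of these 33, against 7.26% and 1.13% of all promoters. The 4 motifs were searched on both strands, and none can lie inside another. The shares of all promoters count every window, also several of 1 gene, and were not limited to genes with enough reads here. The members have 1 window per gene, so the 2 sets are not matched and the shares are not a test of enrichment. A match is a run of letters and not a measured binding site. Only these letters were searched, so an element with other letters would be missed and absence of a match says little.

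Most sterol genes that changed were higher in si_GRB2, and most fatty acid genes that changed were lower. Of the 18 sterol genes, 9 were higher and 4 were lower, and of the 11 fatty acid genes with enough reads to test, 2 were higher and 6 were lower. The largest rises were those of ME1, a malic enzyme that supplies NADPH, and INSIG1, and the largest falls those of ELOVL5, ACSS2 and ACLY. Every change was below 1.5-fold. A gene counted as changed when its adjusted p was under 0.05 by edgeR's quasi-likelihood test, fitted across all 15801 genes with enough reads. Over all tested genes, 30.6% passed this limit, 15.2% higher and 15.5% lower in si_GRB2. Of the 35 tested members, 25 passed, 14 higher and 11 lower. The groups did not overlap in 30 of the 35 tested members, where 42.3% of all tested genes showed no overlap. The shares over all tested genes, here and below, were not matched to the members in read level. Genes with more reads pass more readily, so these differences in share are not a test of the pathway. The median log2 fold change was 0.16 over the sterol genes, 0.13 over the control genes and −0.19 over the tested fatty acid genes, against 0.0019 over all tested genes. The fatty acid median was −0.11 without si_NC replicate 1 and −0.062 with limma on log2(FPKM + 1), and the control median was 0.077 without si_NC replicate 2. Scaled by library size alone, without TMM factors, 18 members were higher and 7 lower (72.0% of the calls higher against 56.0%), as over all genes 66.5% of the calls were higher against 49.5%. With limma on log2(FPKM + 1), 10 members were higher and 5 lower (66.7% higher), and 59.6% of the calls over all genes were higher. Restricted to a mean FPKM of at least 1, 13 members were higher and 5 lower (72.2% higher, against 63.3% over all genes). The sterol branch held more rises than falls under all 3, and the fatty acid branch more falls than rises.

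**Figure D1:**
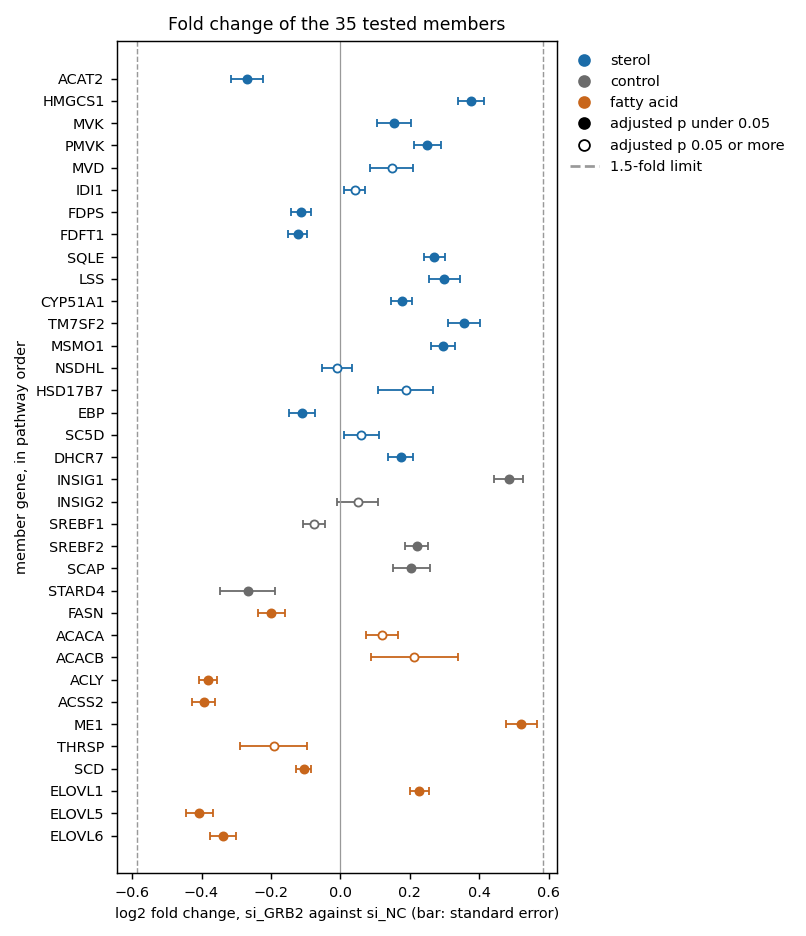
Log2 fold change of si_GRB2 against si_NC on the x axis for each of the 35 tested members, listed in pathway order on the y axis, with standard errors as bars, filled points for an adjusted p under 0.05 and dashed lines at the 1.5-fold limit. Most sterol genes lie to the right of 0, most fatty acid genes to the left, and none reaches 1.5-fold in either direction.

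The early part of the sterol branch turns acetyl-CoA into farnesyl diphosphate through mevalonate. HMGCS1, which makes HMG-CoA, had 56.4, 59.1 and 57.9 CPM in si_NC and 76.1, 74.9 and 74.0 CPM in si_GRB2. All 3 si_GRB2 libraries were above all si_NC libraries, and the log2 fold change was 0.38 (SE 0.04, edgeR adjusted p = 1.17e-06). The kinases PMVK and MVK also rose, with log2 fold changes of 0.25 (edgeR adjusted p = 0.000131) and 0.15 (edgeR adjusted p = 0.025). MVK lost its call without si_NC replicate 2, at a log2 fold change of 0.096, without si_GRB2 replicate 1, at 0.12, and without si_GRB2 replicate 2, at 0.16. ACAT2, the cytosolic thiolase that opens the pathway, went the other way, from 64.6, 66.2 and 58.6 CPM in si_NC to 53.3, 52.1 and 51.6 CPM in si_GRB2. On the log2 scale the difference was −0.27 (SE 0.05, edgeR adjusted p = 0.000304). FDPS, which makes farnesyl diphosphate, fell by 0.11 on the log2 scale (edgeR adjusted p = 0.00686). The decarboxylase MVD had a log2 fold change of 0.15 and the isomerase IDI1 of 0.041, and neither passed the test, although their groups did not overlap. Scaled by library size alone, MVD and IDI1 passed as higher (edgeR adjusted p = 0.0229 and 0.035).

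The squalene steps commit the pathway to sterols. SQLE, the epoxidase and a rate-limiting enzyme of the later pathway, had 249.9, 252 and 235 CPM in si_NC and 293, 296 and 300.5 CPM in si_GRB2. The groups were apart by more than their spread, with a log2 fold change of 0.27 (SE 0.03, edgeR adjusted p = 4.53e-06). LSS, which closes the ring to lanosterol, rose with a log2 fold change of 0.30 (edgeR adjusted p = 9.15e-05), a call not reached with limma on log2(FPKM + 1) (adjusted p = 0.073). FDFT1, the squalene synthase just before SQLE, fell by 0.12 on the log2 scale, from 193, 192 and 195 CPM to 175, 179 and 178 CPM (edgeR adjusted p = 0.00283). The falls of FDFT1 and FDPS did not pass the test when libraries were scaled by size alone (log2 fold changes of −0.073 and −0.062).

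The 8 genes after lanosterol remove methyl groups and shift or reduce double bonds. TM7SF2, a sterol C14 reductase, had 37.5, 35.2 and 37.9 CPM in si_NC and 48.2, 48.1 and 45.2 CPM in si_GRB2. Its log2 fold change of 0.36 was the largest of these steps (SE 0.05, edgeR adjusted p = 1.98e-05). MSMO1, the C4 methyl oxidase, rose from 89.6, 85.5 and 86.7 CPM to 108, 106 and 108 CPM, a log2 fold change of 0.30 (edgeR adjusted p = 5.65e-06). CYP51A1, the C14 demethylase, and DHCR7, the last reductase of the pathway, rose less, with log2 fold changes of 0.18 and 0.17 (edgeR adjusted p = 0.000282 and 0.0013). DHCR7 did not pass with limma on log2(FPKM + 1) (adjusted p = 0.0834). EBP, a sterol isomerase, fell by 0.11 on the log2 scale (edgeR adjusted p = 0.0323), and this call was lost in 4 of the 6 fits that each left out 1 library. Those 4 left out si_NC replicate 2, si_NC replicate 3, si_GRB2 replicate 2 and si_GRB2 replicate 3, with log2 fold changes of −0.11, −0.10, −0.078 and −0.11. HSD17B7, NSDHL and SC5D did not pass the test, with log2 fold changes of 0.19, −0.0094 and 0.061. The groups of HSD17B7 did not overlap, and it passed as higher when scaled by library size alone (edgeR adjusted p = 0.0306).

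**Figure D2:**
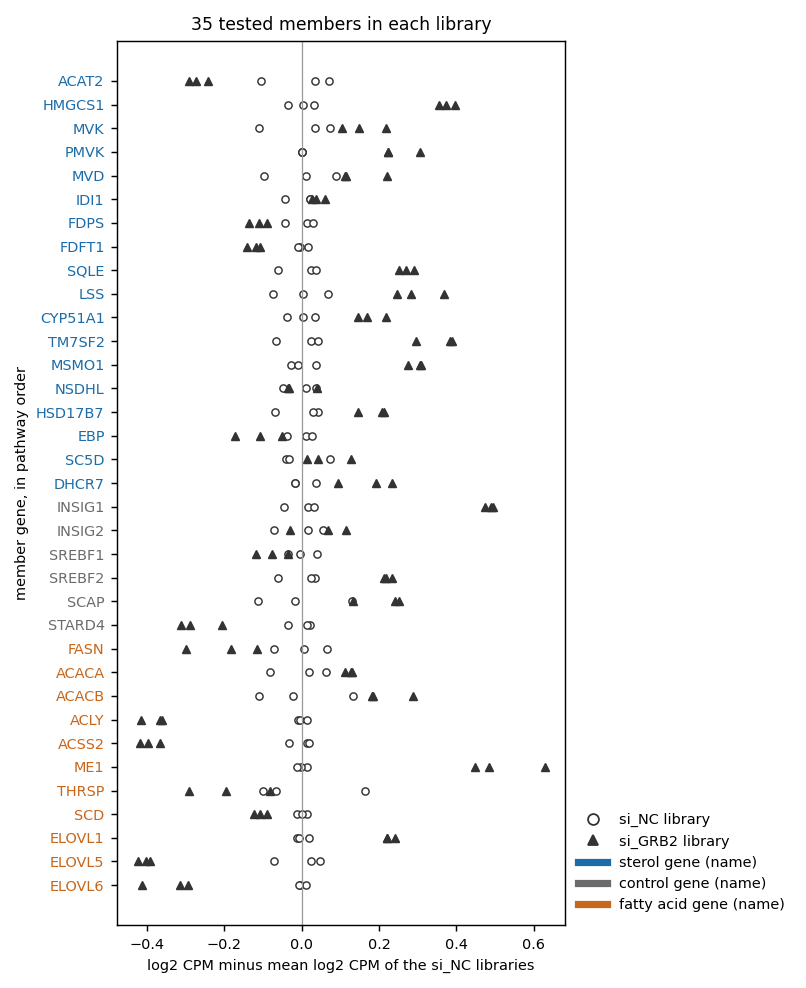
Log2 CPM of each library minus the mean of the si_NC libraries on the x axis, for the 35 tested members in pathway order on the y axis, with open circles for si_NC and triangles for si_GRB2. The triangles stand clear of the circles for HMGCS1, SQLE, TM7SF2, INSIG1 and ME1 on the right and for ACLY, ACSS2, ELOVL5 and ELOVL6 on the left, while they mix for NSDHL, SC5D, INSIG2, SREBF1 and THRSP.

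Among the control genes, INSIG1 changed the most. INSIG1 is itself a target of SREBPs and closes their feedback loop. It had 36.3, 34.8 and 36.8 CPM in si_NC and 50.7, 50.4 and 49.97 CPM in si_GRB2, which is 0.48 on the log2 scale (SE 0.04, edgeR adjusted p = 2.27e-07). Its paralog INSIG2 had 20.5, 18.8 and 20.0 CPM and 21.4, 20.7 and 19.3 CPM in the same groups, which overlapped (log2 fold change 0.050, SE 0.06, edgeR adjusted p = 0.593). SREBF2 had 127, 119 and 126 CPM in si_NC and 144, 146 and 144 CPM in si_GRB2. All si_GRB2 libraries were higher, with a log2 fold change of 0.22 (SE 0.03, edgeR adjusted p = 8.64e-05). SREBF1 had 215, 219.5 and 226 CPM in si_NC and 209, 215 and 203 CPM in si_GRB2. These ranges overlapped, and the log2 fold change of −0.076 (SE 0.03, edgeR adjusted p = 0.0765) did not pass the test. SREBF1 passed as lower in the robust edgeR fit (adjusted p = 0.0445) and without si_NC replicate 1 (−0.10, edgeR adjusted p = 0.0358). SCAP rose with a log2 fold change of 0.21 (edgeR adjusted p = 0.00767), which was 0.14 and not significant without si_NC replicate 2. STARD4, a soluble sterol carrier with few reads, fell by 0.27 on the log2 scale (edgeR adjusted p = 0.0166), a call lost without si_GRB2 replicate 1 (edgeR adjusted p = 0.0505) and without si_GRB2 replicate 3 (0.0501).

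The FPKM of both SREBF genes and both INSIG genes were also set against each other within each library, where differences in library scaling cancel. These pairs and the pairs named next were chosen after their values were seen, so the ratios are given without a test. SREBF2 stood at 0.644, 0.589 and 0.607 of the FPKM of SREBF1 in si_NC and at 0.752, 0.738 and 0.771 in si_GRB2. INSIG1 stood at 1.92, 2.01 and 1.99 times INSIG2 in si_NC and at 2.56, 2.64 and 2.80 times in si_GRB2. Across the branches, the ratio of HMGCS1 to ACLY was 0.0782, 0.0817 and 0.0790 in si_NC and 0.140, 0.133 and 0.131 in si_GRB2. The ratio of SQLE to FASN was 0.346, 0.368 and 0.313 in si_NC and 0.462, 0.446 and 0.514 in si_GRB2. ELOVL1, set against its paralog ELOVL5, stood at 3.63, 3.59 and 3.97 times its FPKM in si_NC and at 5.91, 5.74 and 5.70 times in si_GRB2. These were all the pairs computed, and the 5 ratios were higher in every si_GRB2 library than in every si_NC library.

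**Figure D3:**
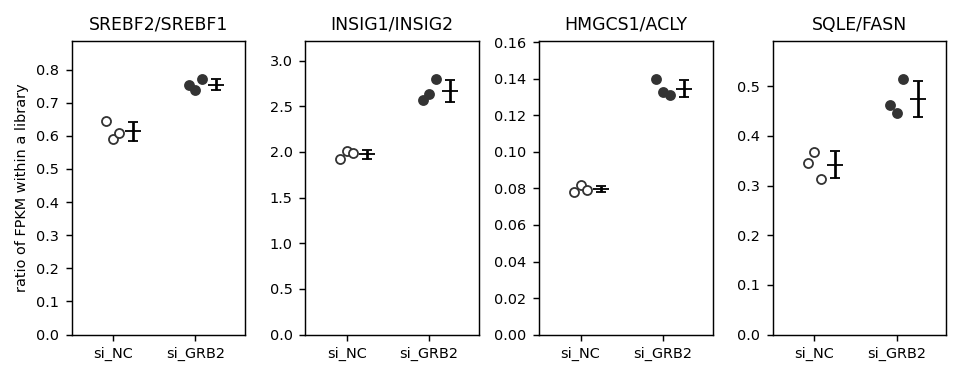
Ratio of the authors' FPKM of 2 genes within a library, 1 panel per pair with its own y axis from 0, for the 3 si_NC (open) and 3 si_GRB2 (filled) libraries, with the mean and SD beside them. The mean ratio went from 0.614 to 0.754 for SREBF2/SREBF1, from 1.97 to 2.67 for INSIG1/INSIG2, from 0.0796 to 0.135 for HMGCS1/ACLY and from 0.342 to 0.474 for SQLE/FASN.

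The fatty acid branch begins with enzymes that supply acetyl-CoA and NADPH. ACLY, which splits citrate to cytosolic acetyl-CoA, had 567, 569 and 576 CPM in si_NC and 428, 443 and 444 CPM in si_GRB2. On the log2 scale the difference was −0.38 (SE 0.02, edgeR adjusted p = 1.06e-08), the lowest adjusted p of all members. ACSS2, which makes acetyl-CoA from acetate, had 129, 125 and 129.9 CPM in si_NC and 99.5, 97.5 and 96.0 CPM in si_GRB2. It fell by nearly the same amount, with a log2 fold change of −0.39 (SE 0.03, edgeR adjusted p = 1.57e-07). ME1 ran against these falls, with 61.0, 60.4 and 59.9 CPM in si_NC and 82.5, 84.5 and 93.4 CPM in si_GRB2. Its log2 fold change of 0.52 was the largest of the 35 tested members (SE 0.04, edgeR adjusted p = 2.49e-07).

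FASN, the multienzyme that builds palmitate, was the most abundant member per length, at 134 ± 10.3 FPKM (SD, n = 3) in the controls and 121 ± 8.76 FPKM (SD, n = 3) after knockdown. In CPM it had 1563, 1482 and 1629.8 in si_NC and 1372, 1437 and 1265 in si_GRB2, which did not overlap. The log2 fold change was −0.20 (SE 0.04, edgeR adjusted p = 0.000951), a fold of 0.871, where the ratio of the mean FPKM was 0.897. FASN did not pass the test in a robust edgeR fit (adjusted p = 0.0812) or with limma on log2(FPKM + 1) (adjusted p = 0.347). Over all its alternatives the adjusted p ran from 4.25e-15 to 0.347. ACACA, the acetyl-CoA carboxylase of lipogenic cells, had 39.8, 37.2 and 41.0 CPM in si_NC and 42.4, 43.0 and 42.9 CPM in si_GRB2, a log2 fold change of 0.12 (edgeR adjusted p = 0.0553) that passed with library size scaling (0.17, edgeR adjusted p = 0.00999), without si_NC replicate 3 (edgeR adjusted p = 0.0324) and in the robust fit (0.0473). Its mitochondrial paralog ACACB was the lowest tested member in FPKM, at 0.25 ± 0.0265 (SD, n = 3) in si_NC, and did not pass the test. THRSP, a small protein that promotes lipogenesis, had a log2 fold change of −0.19 (SE 0.10, edgeR adjusted p = 0.151) and overlapping groups.

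Desaturases and elongases shape the palmitate that FASN releases. SCD, which makes oleate, had 705, 692 and 698 CPM in si_NC and 642, 656 and 648 CPM in si_GRB2. The groups were apart, with a log2 fold change of −0.11 (SE 0.02, edgeR adjusted p = 0.00208) that fell short with library size scaling (−0.056, edgeR adjusted p = 0.0757) and in all 3 fits on FPKM (limma adjusted p from 0.354 to 0.569). ELOVL6, which extends palmitate, had 113, 114 and 112 CPM in si_NC and 84.9, 90.9 and 92.2 CPM in si_GRB2 (log2 fold change −0.34, SE 0.04, edgeR adjusted p = 2.93e-06). ELOVL5, which extends polyunsaturated chains, had 97.7, 99.3 and 91.4 CPM in si_NC and 71.6, 72.7 and 73.2 CPM in si_GRB2. Its log2 fold change of −0.41 was the largest fall of the members (SE 0.04, edgeR adjusted p = 7.21e-07). ELOVL1, which extends saturated very long chains for sphingolipids, rose instead, from 233, 234 and 238 CPM to 278, 274 and 274 CPM (log2 fold change 0.23, SE 0.03, edgeR adjusted p = 6.47e-06).

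FADS1 and FADS2, the front-end desaturases of polyunsaturated fatty acids, were the members without enough reads to test. FADS1 had 2, 5 and 7 reads in si_NC and 8, 1 and 2 reads in si_GRB2. FADS2 had 1, 1 and 0 reads in si_NC and 3, 1 and 2 reads in si_GRB2. The limit that 3 reads set was 0.107 to 0.119 CPM per library, counting error only, and with at most 8 reads of either gene in any library no fold change is given.

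**Figure D4:**
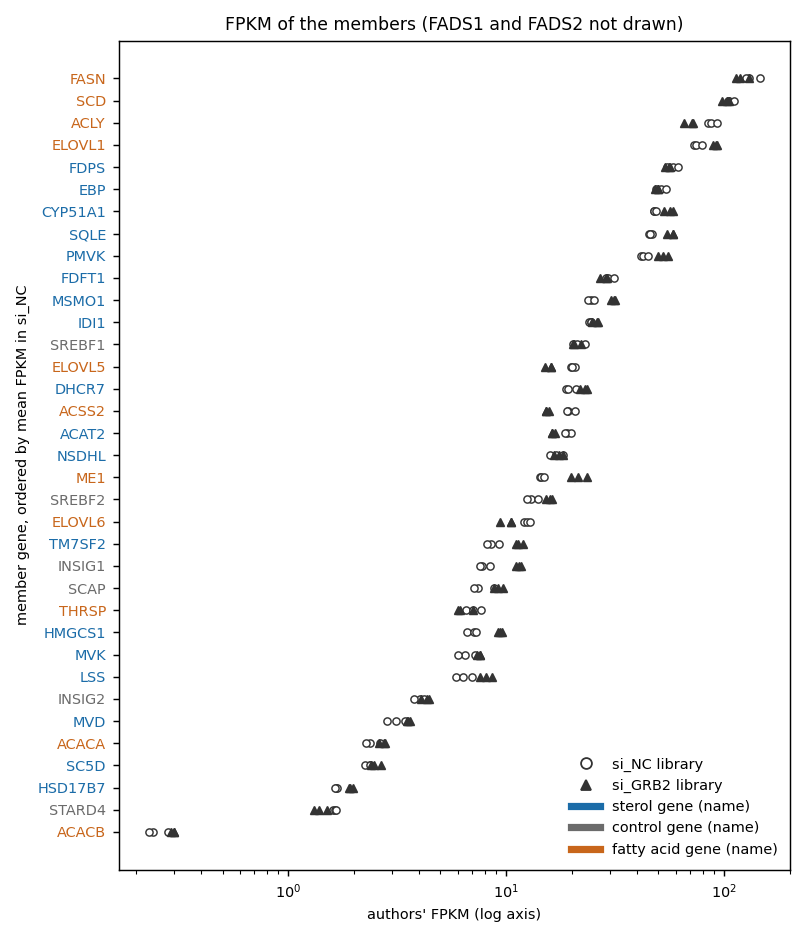
The authors' FPKM on a log x axis for 35 members, ordered by their mean in si_NC on the y axis, with open circles for si_NC and triangles for si_GRB2 libraries. FASN, SCD and ACLY head the order, ACACB is lowest at 0.25 in si_NC, and FADS1 and FADS2 are not drawn because they had at most 0.02 FPKM in any library.

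Averaged over a branch, the shift was seen in each library. The mean centred log2 CPM of the 18 sterol genes was −0.062, −0.062 and −0.057 in the si_NC libraries and 0.069, 0.050 and 0.062 in the si_GRB2 libraries. For the 11 fatty acid genes it was 0.061, 0.0098 and 0.056 in si_NC and −0.052, −0.026 and −0.049 in si_GRB2. Taken as the sterol mean minus the fatty acid mean, the si_NC libraries averaged −0.10 ± 0.027 (SD, n = 3) and the si_GRB2 libraries 0.10 ± 0.023 (SD, n = 3). Since the genes were chosen with earlier results known, no test of these means is given. ME1 and ELOVL1, the fatty acid genes that rose, are part of these means.

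**Figure D5:**
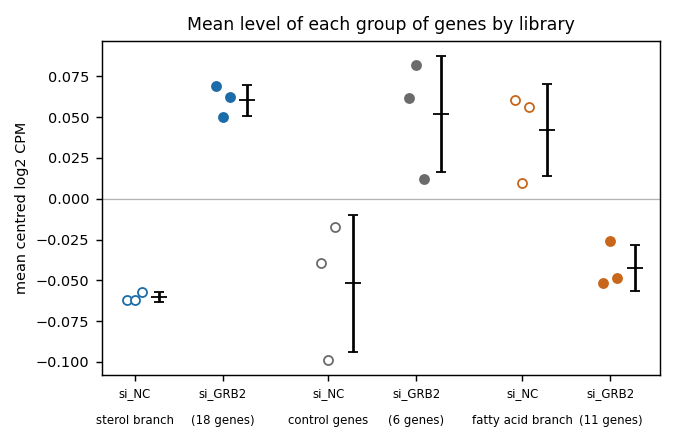
Mean over genes of log2 CPM centred on each gene's mean, on the y axis, for 18 sterol, 6 control and 11 fatty acid genes on the x axis, with 1 point per library (open si_NC, filled si_GRB2) and the mean and SD beside them. The sterol and control genes sit higher and the fatty acid genes lower in all 3 si_GRB2 libraries than in the si_NC libraries.

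A differentially expressed gene (DEG) was taken here as one with a change of more than 1.5-fold in either direction and an adjusted p under 0.01. The study used the same fold limit with a p under 0.01 that its methods do not call adjusted. By edgeR 0 members and by DESeq2 0 members passed both limits, while 29 of the 35 tested members had an unadjusted p under 0.05 by edgeR, where 39.4% of all tested genes did. Over all tested genes, 2.52% were DEGs. The ME1 rise of 0.52 and the INSIG1 rise of 0.48 on the log2 scale lay closest to the limit.

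Some members share exons with a neighbouring gene. The study's methods describe a library preparation that allows strand-specific sequencing, but the sources used here do not say whether the counting used strand. TCP1 overlaps ACAT2 on the opposite strand over 454 exon bases with 699.7% of its reads and had a log2 fold change of 0.024. MMAB overlaps MVK on the opposite strand with reads equal to 110.2% of those of MVK, and had a log2 fold change of −0.0007. AKAP9 overlaps CYP51A1 on the opposite strand with 27.3% of its reads and rose with a log2 fold change of 0.26 (edgeR adjusted p = 0.000264). RAI1 overlaps SREBF1 on the opposite strand with 14.7% of its reads and had a log2 fold change of −0.20 (edgeR adjusted p = 0.00395). The pseudogene HSD17B7P2 held reads equal to 12.3% of those of HSD17B7, whose value is less certain for that reason. NDUFC2 shares 55 exon bases with THRSP on the opposite strand, and VPS51 shares 18 with TM7SF2 on the same strand. The part of these neighbours in the members' values was not tested.

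On GRCh38 with GENCODE 44, the sterol genes that rose most lie on chromosome 5 (HMGCS1, 43287470 to 43313512, minus strand), chromosome 11 (TM7SF2, 65111845 to 65116384, plus strand) and chromosome 21 (LSS, 46188141 to 46228824, minus strand). INSIG1 lies on chromosome 7 from 155297776 to 155310235 and ME1 on chromosome 6 from 83210402 to 83431051. Of the fatty acid genes that fell, ACLY lies on chromosome 17 from 41866917 to 41930542, ACSS2 on chromosome 20 from 34872146 to 34927962, ELOVL6 on chromosome 4 from 110045846 to 110199199 and ELOVL5 on chromosome 6 from 53267398 to 53349179. FASN lies on chromosome 17 from 82078338 to 82098294, apart from ACLY.

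Genes that work around both branches were followed in 7 lists, 6 of which held both rises and falls. Their counts stand against 30.6% of all tested genes that passed, 15.2% higher and 15.5% lower. Of 11 tested genes listed around SREBP processing, 4 rose and 3 fell. The list is loose, and MID1IP1, 1 of the 3 that fell (log2 fold change −0.23, edgeR adjusted p = 0.000488), is not a processing partner. RNF139, a ubiquitin ligase of the endoplasmic reticulum that binds INSIG proteins, rose most (log2 fold change 0.37, edgeR adjusted p = 6.68e-07), and ERLIN2, a scaffold of the same membrane, fell most (−0.50, edgeR adjusted p = 8.39e-05). Of 8 genes of LXR and sterol efflux, 1 rose, RXRB (0.22, edgeR adjusted p = 0.00147), and 1 fell, RXRA (−0.15, edgeR adjusted p = 0.0102). With so few genes, this share cannot be told from the 30.6% of all genes. ABCA1 and ABCG4 of this list had only 97 and 61 reads over the 6 libraries.

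Of 14 genes of sterol storage and traffic, 2 rose and 4 fell. SOAT2, a cholesterol esterifying enzyme, was the one DEG of the 7 lists, from 1.64, 1.49 and 0.927 CPM in si_NC to 0.358, 0.364 and 0.632 CPM in si_GRB2 (log2 fold change −1.58, SE 0.32, edgeR adjusted p = 0.00116). It had only 145 reads over the 6 libraries. OSBPL2, an oxysterol-binding protein, rose most (0.22, edgeR adjusted p = 0.000197). Of 13 genes that use isoprenoids, 3 rose, where 15.2% of all tested genes did, and the other 10 did not pass the test. With so few genes, the difference from all genes is not read as a result about the list. NUS1, a subunit of the dolichol-making enzyme, rose most (0.42, edgeR adjusted p = 3.37e-05).

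Of 7 genes that supply NADPH and citrate, 2 rose and 2 fell, with IDH1 at a log2 fold change of 0.21 (edgeR adjusted p = 0.000707) and MTHFD1 at −0.18 (edgeR adjusted p = 0.0002). Of 16 tested genes of glycerolipid synthesis, 4 rose and 4 fell, with LPIN3 at 0.18 (edgeR adjusted p = 0.0292) and GPAT3, which had 295 reads in all, at −0.68 (edgeR adjusted p = 0.015). Of 17 tested genes of fatty acid oxidation, 4 rose and 4 fell. ACAA1, a peroxisomal thiolase, fell most (−0.57, edgeR adjusted p = 1.21e-10). The medians of the 7 lists lay between −0.031 and 0.084 on the log2 scale, against 0.0019 over all tested genes.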

How the data were processed

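Poly(A) RNA of 6 SK-BR-3 libraries, 3 si_NC and 3 si_GRB2, was analysed. The authors trimmed reads with FASTX-Toolkit, aligned them with HISAT2 to GRCh38 and deposited the count of uniquely mapped reads per gene, without normalization. The authors also deposited FPKM, rounded to 2 decimals. The counting tool, the annotation release and the total behind FPKM are not given in the sources used here.

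TMM factors, filterByExpr and the quasi-likelihood test of edgeR 4.0.16 (R 4.3.3) compared si_GRB2 with si_NC over 15801 genes, with Benjamini-Hochberg adjustment and no covariate. CPM are TMM-normalized. The common biological coefficient of variation was 3.75%. The script was tested on simulated data. Branch means were taken on log2 CPM (prior count 2). DESeq2 1.42.0 and limma 3.58.1 served as alternatives, and annotation tables were made in Python 3.11.15. Of 30327 gene identifiers, 99.7% were in GENCODE 44. Of several promoter windows of a gene, the one nearest its MANE Select start was used.

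The members, lists and motifs were chosen with earlier results of these data known. Values were given per library for members with an adjusted p under 0.05 and an absolute log2 fold change of at least 0.3, for FASN, SCD, SQLE, both INSIG and both SREBF genes, and for others where a result turned on them. From each list, the largest rise and fall that passed and any DEG were named, except 1 gene that is not reported here. Splicing was not analysed here.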

Additional observations from a re-analysis of the deposited data

How the results depend on the processing

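Over 17 refits each, 15 of the 25 members that passed kept their direction and call in every one, among them HMGCS1, SQLE, INSIG1, SREBF2, ME1, ACLY, ACSS2, ELOVL5 and ELOVL6. Over all members, 543 refits kept the call, 43 lost it and 8 gained it. With library size only, 7 members were lower, 1 of them in the sterol branch, and the medians were 0.21 (sterol), −0.14 (fatty acid) and 0.18 (control), a setting that puts the median of all genes at 0.052. With limma on log2(FPKM + 1), 5 members were lower, 1 of them a sterol gene and 0 control genes, the fatty acid median was −0.062, and 834 genes rose and 566 fell. With log2(FPKM + 0.1) the same 3 counts were 5, 1 and 0, the medians were 0.21, −0.088 and 0.17, and 927 genes rose and 607 fell. With a mean FPKM of at least 1, the counts were 5, 1 and 0, the fatty acid median was −0.14, and 987 genes fell. In at least 1 of these 3 FPKM fits, MVK, FDPS, FDFT1, LSS, EBP, DHCR7, SCAP, STARD4, FASN and SCD lost their calls. Why FPKM gave fewer calls was not tested. Among control genes, 0 were lower with DESeq2 and with an adjusted p under 0.01, and 2 with the robust fit. An adjusted p under 0.01 left 1573 genes higher, a stricter limit by construction.

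Leaving out 1 library at a time gave 12 to 15 members higher and 9 to 12 lower. Control genes that fell numbered 0 to 2. The medians ranged from 0.13 to 0.17 (sterol), from −0.24 to −0.11 (fatty acid, least without si_NC replicate 1) and from 0.077 to 0.16 (control, least without si_NC replicate 2). With the replicate block, 14 members were higher and 11 lower, 2390 genes rose and 2417 fell, the medians were 0.16, −0.19 and 0.13, and GRB2 had a log2 fold change of −2.15. Same-numbered libraries correlated over 0.1 in 1 of 3 pairs, and 3 of 6 libraries correlated best with their own number, so the numbers were not taken to pair them. GRB2 stayed between −2.18 and −1.91 over all refits. STARD4, ACACB and HSD17B7 have few reads, which limits their precision.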

Other observations

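FADS1 and FADS2 had fewer reads than each of the 8 other protein-coding genes within 100 kb on chromosome 11, whose levels varied widely. FADS2 (61792980 to 61867354, plus strand) and FADS1 (61799627 to 61829318, minus strand) had 8 and 25 reads over the 6 libraries. FEN1, a DNA replication nuclease whose gene starts beside FADS2 at 61792911, had 25118 reads and 52.9 to 63.6 FPKM, and TMEM258, a subunit of the oligosaccharyltransferase, had 15.6 to 17.6 FPKM. FADS3, the third gene of the cluster, had 1.53 to 2.22 FPKM. DAGLA (1170 reads), RAB3IL1 (624 reads) and MYRF (442 reads, 0.19 to 0.23 FPKM) were low, and BEST1 (10.9 to 21.6 FPKM) and FTH1 (448 to 529 FPKM) were higher. The genes BEST1 (plus strand) and FTH1 (minus strand, 191259 reads) overlap in position. The part of FTH1 in the BEST1 level was not tested. These neighbours were chosen after the values of FADS1 and FADS2 were seen.

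STARD3, a late endosomal sterol transporter whose gene lies beside ERBB2, had 417, 428 and 431 CPM in si_NC and 319.7, 325 and 315 CPM in si_GRB2. On the log2 scale the difference was −0.41 (SE 0.03, edgeR adjusted p = 7.36e-09), and every si_GRB2 library was lower. TMEM97, a sterol-responsive membrane protein that binds NPC1, had 117, 116 and 108 CPM and 83.8, 83.9 and 85.9 CPM in the same groups, −0.43 on the log2 scale (edgeR adjusted p = 2.63e-07). MBTPS2, the protease that makes the second cut of SREBPs, fell with −0.32 on the log2 scale (edgeR adjusted p = 0.000172). MBTPS1, also of the SREBP processing list, rose instead (0.16, edgeR adjusted p = 0.00509). PLIN2, a coat protein of lipid droplets, fell with −0.44 on the log2 scale (edgeR adjusted p = 2.18e-05). PLIN3, of the same glycerolipid list, rose instead (0.18, edgeR adjusted p = 0.000955). All genes of this paragraph were named after their values were seen.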
